A study of Rattus norvegicus with 9 samples.

Results

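The genes described here make, carry and sense retinoic acid: Aldh1a2, the retinoic acid receptor genes Rara, Rarb and Rarg, the retinoid X receptor genes Rxra, Rxrb and Rxrg, and the binding protein genes Crabp1 and Crabp2. They were chosen by name, as every probe set that the platform annotation gives to 1 of these symbols alone, which found all 9 genes among the 14217 genes with a symbol on the array. They had 11 probe sets, of which 7, for 7 genes, lay above the filter on low values (a mean intensity of about 17.3). Over the whole array 18625 of 31042 probe sets did, and so did a probe set of 9868 of the 14217 genes. RNA came from the ventral spinal cord of embryonic day 14 rats, with 1 pool of 5 embryos per array. Of the 9 pools, 4 carried a mutant human SOD1 transgene (hSOD1 with G93R, marked Roth in the titles), 4 a wild-type hSOD1 transgene (marked Chan), and 1 was the negative control (marked SDneg), which has no replicate. The control's description also speaks of positive embryos, against its title. The pools of both transgenic groups are called biological replicates in the labels, so errors and p-values measure the spread between pools. Each transgene came under 1 name, so that the mutation, the line and the site of insertion cannot be told apart, and the sources used here do not name the promoter of the transgenes.

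Retinoic acid is made from vitamin A: retinol is oxidised to retinaldehyde, and Aldh1a2 (retinaldehyde dehydrogenase) oxidises retinaldehyde to retinoic acid. The cellular binding proteins Crabp1 and Crabp2 carry it in the cytoplasm, RAR proteins bind it in the nucleus as partners of RXR proteins on DNA, and Cyp26 enzymes break it down. In the developing spinal cord Aldh1a2 is known from motor neurons at limb levels, from the meninges and from the neighbouring mesoderm, and retinoic acid helps to pattern motor neuron columns. RAR-RXR pairs bind direct repeats of short half-sites, and the genes Rarb and Cyp26a1 are textbook targets of retinoic acid.

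The repeats at Rarb and Cyp26a1 are shown because both genes, for a receptor and a breakdown enzyme, are known targets of retinoic acid. Start windows of 300 bases, from 250 before to 50 after a RefSeq gene start in the rat build GRCr8, were searched on both strands for 2 half-sites in the same orientation with 1, 2 or 5 bases between them, where a half-site was AGGTCA, its variant GGGTCA, the form AGTTCA or else the form GGTTCA. All 9 members matched by symbol, with 10 windows. A repeat with a spacer of 5 bases was found in 1 of these 10 windows, that of Rarb, and in 1 of 70 windows of other retinoid genes listed for this work, that of Cyp26a1. It was found in 128 of all 33469 windows, 0.382%. Repeats with spacers of 1 and 2 bases were found in 0 of the 10 windows, against 0.233% and 0.17% of all windows. In the following 30-base stretches, 5′ to 3′, capitals mark the half-sites.
Rarb: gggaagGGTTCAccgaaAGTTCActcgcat
Cyp26a1: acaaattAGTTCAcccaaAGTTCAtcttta
The Rarb stretch is chr15:11336410-11336439 on the plus strand, with the repeat at bases 25 to 41 after the annotated start. The Cyp26a1 stretch is chr1:244883724-244883753, printed from the minus strand while the gene lies on the plus strand, with the repeat 92 to 76 bases before the start. Both second half-sites have the same letters. A match of letters is a description and not a measured binding site.

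The sequence before the start of Aldh1a2 is shown because this gene varied most among the members. It is chr8:80758391-80758640 of GRCr8, plus strand, the 250 bases before the RefSeq start, with capitals on an octamer ATGCAAAT, a CCAAT box and the TATA-like TATATA.
Aldh1a2: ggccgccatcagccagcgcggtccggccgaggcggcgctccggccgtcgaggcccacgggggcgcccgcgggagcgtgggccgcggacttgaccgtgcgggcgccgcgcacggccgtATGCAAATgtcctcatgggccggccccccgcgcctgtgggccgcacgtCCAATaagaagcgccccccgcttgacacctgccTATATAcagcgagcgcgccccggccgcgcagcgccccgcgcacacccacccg
These letters start 133, 85 and 52 bases before the start, in a stretch with 77.2% G and C. On either strand of all 33469 such 250-base stretches, ATGCAAAT was found in 1.56%, CCAAT in 34% and TATATA in 5.45%. Of the 10 member stretches, Aldh1a2 was the only one with ATGCAAAT or TATATA, and Rxrg also held CCAAT. No binding was measured at any of them.

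Array medians lay between 31.0 and 33.9 on the authors' linear scale. Wild-type replicate 2 stood apart from the other arrays: the 3′/5′ ratio of its beta-actin probe sets, which reads RNA quality, was 19.2, against 8.19 to 9.20 in the other wild-type pools, 6.98 to 7.98 in mutant pools and 6.66 in the control. Its median correlation with the other arrays across probe sets was also the lowest, 0.976, where the other arrays had 0.982 to 0.986. For the members, the differences of mutant from wild-type pools are also given without it where that turns the sign or moves the size clearly. Of the motor neuron markers listed for this work, 11 of 12 on the array lay above the filter, among them Isl1, Chat and Slc18a3. Of the ventral progenitor and floor plate markers 5 of 10 did, and Shh, Foxa2, Foxa1, Olig1 and Olig2 did not. Of 15 markers of meninges and fibroblasts 3 did, with Col1a1, Dcn, Foxc1 and Lum below the filter, and of 9 microglial markers 0 did. Of all 14217 genes with a symbol on the array, 9868 had a probe set above the filter. In these bulk samples, fewer cells of a type and less RNA per cell cannot be told apart.

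Aldh1a2 (1368003_at), the enzyme of the last step of retinoic acid synthesis, had the widest range of the members. Its intensity was 2426, 1348, 2012 and 994 in mutant replicates 1 to 4, 1197, 783, 1333 and 1102 in wild-type replicates 1 to 4, and 1124 in the negative control. Mutant replicates 1 and 3 lay above every other pool and mutant replicate 2 just above the highest wild-type pool, while mutant replicate 4 lay inside the wild-type range, so the groups overlapped. Mutant pools averaged 1695 ± 644 and wild-type pools 1104 ± 234 (SD, n = 4 each). The log2 difference was 0.56 (SE 0.232, 95% interval 0.06 to 1.06), with an unadjusted p of 0.0314 in limma, and it did not pass after adjustment over all 18625 tested probe sets (limma adjusted p = 0.929). At an unadjusted p under 0.05 stood 4.93% of all tested probe sets, and 1 of the 7 member probe sets.

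The size of the Aldh1a2 difference depended on single pools. It was 0.36 without mutant replicate 1, 0.79 without mutant replicate 4 and 0.40 without wild-type replicate 2, which had the lowest Aldh1a2 value. When the log2 actin ratio entered as a covariate it was 0.27 (SE 0.266, limma adjusted p = 1.00). Mutant replicate 1, the pool with the highest value, lacks the tag le2 that 6 of the 8 transgenic arrays carry in their titles, and on those 6 arrays alone the difference was 0.41. Wild-type replicate 1 and the control lack it too, and the sources used here do not explain it. Against the negative control, Aldh1a2 was higher in 3 of 4 mutant pools and in 2 of 4 wild-type pools, with log2 differences of 0.51 (95% interval −0.29 to 1.30) and −0.05 (95% interval −0.84 to 0.74). These comparisons share the single control pool. The mutant value was 0.31 without mutant replicate 1, 0.73 without mutant replicate 4 and 0.88 with the tag as covariate, each with a limma adjusted p of 1.00. The wild-type value turned to 0.10 without wild-type replicate 2.

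**Figure D1:**
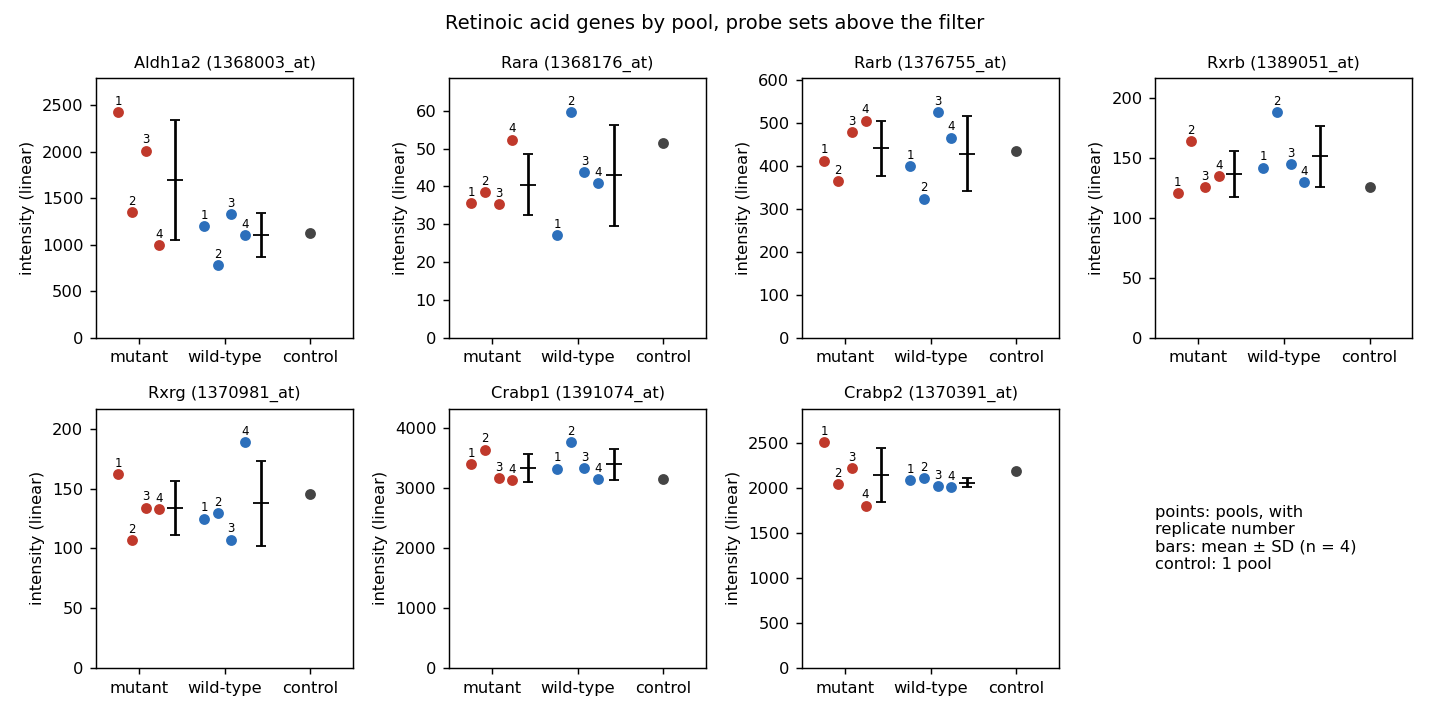
Linear intensity (y axis of each panel, starting at 0) of the 7 probe sets above the filter in each pool, by group, with replicate numbers beside the points and the mean ± SD of 4 pools as a bar. Aldh1a2 ranges from 783 to 2426, while Crabp1 stays between 3134 and 3764; levels are not comparable between panels.

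Pools of the same group differed widely in Aldh1a2, and most so the mutant pools. Its SD within groups was 0.469 on the log2 scale, where the median over all tested probe sets was 0.185. A smaller SD was found for 97.6% of all tested probe sets, and for 99.8% of the 1022 whose mean level lay within 0.5 log2 units of it. The highest of the 4 mutant pools had 2.44 times the intensity of the lowest, and the highest of the 4 wild-type pools 1.70 times. The SD was 0.575 in the mutant and 0.329 in the wild-type pools; a smaller SD was found for 99.1% of all tested probe sets in mutant and for 84.0% in wild-type pools. Whether the spread itself differs between the groups was not tested.

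**Figure D2:**
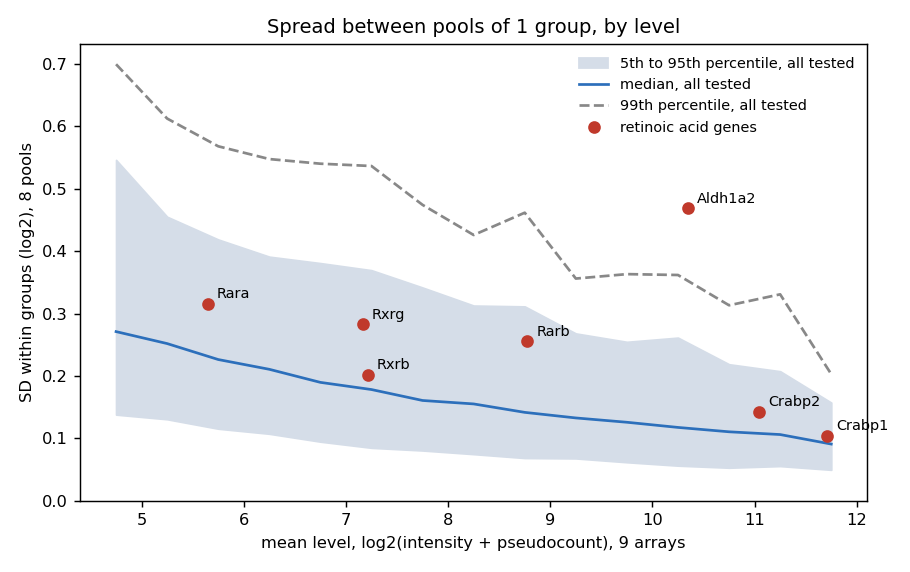
SD within groups over the 8 transgenic pools (y axis, log2 units) against the mean level on 9 arrays (x axis, log2 of intensity plus a pseudocount of 8.25). The band and lines give percentiles over all tested probe sets in level bins, and the points the 7 member probe sets; Aldh1a2, at 0.469, lies above the 99th percentile line and the other 6 lie inside the band.

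Crabp2 (1370391_at), which hands retinoic acid to its receptors, followed Aldh1a2 in the order of the mutant pools. Its intensity was 2510.3, 2050.4, 2221 and 1807 in mutant replicates 1 to 4, 2093, 2117, 2027 and 2012 in wild-type replicates 1 to 4, and 2192 in the control. All 4 wild-type values lay inside the mutant range and below the control, and mutant replicates 1 and 3 lay above it. Mutant pools averaged 2147 ± 296 and wild-type pools 2062 ± 50.7, which differ by 0.05 on the log2 scale (95% interval −0.14 to 0.24, limma adjusted p = 0.966). Wild-type pools were nearly alike, with an SD of 0.0353 log2 units, and 1.00% of all tested probe sets had a smaller SD in these pools. The SD in mutant pools was 0.199.

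The order of the 4 mutant pools in Aldh1a2, with replicate 1 highest and then 3, 2 and 4, recurred in Crabp2 alone of the other 6 member probe sets, and in 808 of all 18625 tested, 4.34%. Of the 34 marker genes above the filter, 7 had the same order. They were Isl2, Prph and Slc5a7 of 11 motor neuron genes, and Foxp1 and Epha4 of 6 genes of limb-level motor columns. Runx1 and Sncg, of 3 sensory ganglion genes, had it too. Other genes of these lists did not. Lhx1 and Pou3f1 of limb-level motor columns were lowest of the mutant pools in replicate 1, at 532 and 654. Foxp1, a transcription factor of motor columns, and Sncg, a synuclein, were picked out after their values were seen. Foxp1 was 1138, 853, 965 and 691 in mutant replicates 1 to 4, 799, 744, 813 and 843 in wild-type replicates 1 to 4, and 839 in the control. Sncg was 4432.5, 3204, 3425.5 and 2843 in mutant replicates 1 to 4, from 2614 to 2927 in wild-type pools, and 2968 in the control. With 4 pools this order is a description.

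Summed levels of some marker lists were also highest in mutant replicate 1, and those of others were not. The summed intensity of the 11 motor neuron markers was 8568 in mutant replicate 1, the highest of all arrays, and lay between 6657 and 8568 in mutant and 6212 and 7726 in wild-type pools, with 6785 in the control. In mutant replicate 1, Prph gave 2985 and Agrn 2178 of this sum. Isl1, Slc18a3, Slc5a7, Prph and Ret were at their highest of all arrays in that pool. Isl2, Chat, Slit2, Slit3, Nrg1 and Agrn were not. The summed intensity of 6 markers of limb-level motor columns lay between 3615 and 4108 in mutant and 3418 and 4033 in wild-type pools. Of 7 sensory ganglion markers on the array 3 lay above the filter, and their sum was 3081 to 4701 in mutant pools, again highest in replicate 1, 2824 to 3208 in wild-type pools and 3196 in the control. Nearly all of this sum was Sncg; Pou4f1, of the same list, was lowest of the mutant pools in replicate 1, at 137 against 140.4 to 204. The 3 measured markers of meninges and fibroblasts summed to 264 in mutant replicate 1 and to 161 to 202 in the other transgenic pools. Of these, Postn was at 180.4 in mutant replicate 1 and at 94.4 to 126 in the others. Col3a1 and Crym were not at their highest in that pool. Col3a1 was 25.7 there and 26 in wild-type replicate 1, and Crym was 57.4 there and 62.2 in wild-type replicate 2. Of 11 markers of paraxial mesoderm, cartilage and muscle on the array 3 lay above the filter. Their sum was 139 to 163 in mutant pools, 111 to 168 in wild-type pools and 112 in the control. It was highest in wild-type replicate 2, with 163 in mutant replicate 1. The 5 ventral progenitor and floor plate genes summed to 672 in mutant replicate 1, against 668 to 809 in the other transgenic pools. The 2 dorsal cord genes summed to 43.6 there, the lowest of all arrays. The part of any of these lists in the level of Aldh1a2 was not tested.

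Crabp1 (1391074_at), which binds retinoic acid in the cytoplasm and is linked to its breakdown, had the lowest SD within groups of the tested members, 0.104 log2 units. That was ordinary for its level. Of the 332 tested probe sets whose mean level lay within 0.5 log2 units of it, 59.9% had a smaller SD. In wild-type pools alone Crabp2 had the smaller SD, 0.0353 against 0.107. It was 3399, 3646, 3163 and 3134 in mutant replicates 1 to 4, 3327, 3764, 3342 and 3158 in wild-type replicates 1 to 4, and 3154 in the control. The groups overlapped over nearly their whole range, with replicate 2 highest in both. Mutant pools averaged 3335 ± 238 and wild-type pools 3398 ± 258, which differ by −0.03 on the log2 scale (95% interval −0.18 to 0.13, limma adjusted p = 0.975), so the data allow at most a small difference either way. The sign was positive without wild-type replicate 2 (0.02) and when the actin ratio was a covariate (0.08). Of the 8 transgenic pools 7 lay above the control, with a log2 difference of 0.09 (95% interval −0.14 to 0.32, limma adjusted p = 1.00) and of 0.014 with the actin covariate.

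Among the receptors that bind retinoic acid directly, Rarb and Rara lay above the filter. Rarb (1376755_at), itself a target of retinoic acid with the repeat shown above, was 413, 365, 479 and 506 in mutant replicates 1 to 4 and 399.7, 324, 525 and 466 in wild-type replicates 1 to 4, with 435 in the control. Replicate 2 was the lowest pool of both groups, and the control lay in the middle of both, with 2 pools of each group on either side. The log2 difference of mutant from wild-type pools was 0.05 (means 441 ± 63.8 and 429 ± 86.7, 95% interval −0.26 to 0.36, limma adjusted p = 0.976). It was −0.07 without wild-type replicate 2 and −0.20 when the actin ratio was a covariate, where it did not pass either (limma adjusted p = 1.00). The order of the pools in Rarb and Aldh1a2 differed in the mutant group and was closer in the wild-type group. The mutant pool with the most Aldh1a2 had less Rarb than 2 of the other mutant pools. The mutant pool with the least Aldh1a2 had the most Rarb. Among wild-type pools, replicate 3 was the highest in both genes (Aldh1a2 1333, Rarb 525) and replicate 2 the lowest in both (783 and 324). With 4 pools in each group this is a description, and a link between the 2 genes was not tested.

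Rara (1368176_at), the receptor gene expressed most broadly in embryos, was measured near the low end of the tested range. It was 35.6, 38.4, 35.4 and 52.4 in mutant replicates 1 to 4, 27.2, 59.6, 43.9 and 41.0 in wild-type replicates 1 to 4, and 51.6 in the control. Wild-type pools held both the highest and the lowest value. The log2 difference was −0.05 (means 40.4 ± 8.08 and 42.9 ± 13.3, 95% interval −0.47 to 0.37, limma adjusted p = 0.978) and turned to 0.10 without wild-type replicate 2, the pool with the highest value. Of the transgenic pools, 6 of 8 lay below the control, with a log2 difference of −0.29 (95% interval −0.91 to 0.34). It was −0.60 with the tag as covariate and −0.46 with the actin covariate, and did not pass in either (limma adjusted p = 0.999 and 0.963).

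Rarg, the receptor gene known chiefly from skin and cartilage, lay below the filter on both of its probe sets. On 1376023_at it was 6.83, 2.17, 6.47 and 15.2 in mutant replicates 1 to 4, 5.62, 2.04, 5.67 and 9.36 in wild-type replicates 1 to 4, and 0.761 in the control. On 1390771_at the 9 values lay between 0.318 and 8.14. Most of these intensities are smaller than the pseudocount of 8.25 added before logarithms were taken, so no fold is given. All 8 transgenic pools lay above the control on the former probe set, and 7 of the 8 on 1390771_at. Among the tested probe sets, all 8 lay above the control in 9.19%, below it in 10.5% and so on 1 side in 19.7%. Those shares cover probe sets above the filter alone, so they are no measure for values as low as those of Rarg. The counts for Rarg rest on a single control pool and are a description.

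Of the RXR genes, whose products pair with RAR and with other nuclear receptors, Rxrb and Rxrg were measured above the filter. Rxrb (1389051_at) was 121, 164, 126 and 135 in mutant replicates 1 to 4, 142, 188, 145 and 129.9 in wild-type replicates 1 to 4, and 126 in the control. Replicate 2 was again the extreme of both groups, here the highest, and 7 of the 8 transgenic pools lay above the control. The labels give same-numbered pools no shared source. For replicate 2 the departures from the group means correlated by 0.0868 across probe sets. The log2 difference of mutant from wild-type pools was −0.14 (means 136 ± 19.3 and 151 ± 25.4, 95% interval −0.43 to 0.15, limma adjusted p = 0.936), −0.03 without wild-type replicate 2 and 0.07 when the actin ratio was a covariate.

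Rxrg (1370981_at), the RXR gene most confined to particular tissues such as muscle and parts of the nervous system, was 162, 107, 134 and 133 in mutant replicates 1 to 4 and 125, 129.6, 107.5 and 189 in wild-type replicates 1 to 4, with 146 in the control. Mutant replicate 1 and wild-type replicate 4 were high and the other pools lay below the control. The log2 difference was −0.02 (means 134 ± 22.6 and 138 ± 35.3, 95% interval −0.38 to 0.34, limma adjusted p = 0.99), and it was 0.13 without wild-type replicate 4. The second Rxrg probe set, 1392271_at, lay below the filter with 16.1, 15.2, 8.90 and 16.9 in mutant and 14.8, 16.2, 20.2 and 2.13 in wild-type replicates 1 to 4, and its lowest pool, wild-type replicate 4, was the highest pool of the first. Levels of 2 probe sets cannot be set against each other, but they placed that pool differently.

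Rxra (1369101_at) lay below the filter at 10.4, 4.03, 8.97 and 6.98 in mutant replicates 1 to 4, 8.98, 3.87, 3.99 and 6.07 in wild-type replicates 1 to 4, and 2.82 in the control, near or under the pseudocount throughout. As on the Rarg probe set 1376023_at, all 8 transgenic pools lay above the control. On the Rxrg probe set below the filter 7 of the 8 did, and shares over probe sets this low are not given. With a single control pool and no such share, these counts are a description and no sign of a rise with the transgenes. When no filter was applied, 0 of the 4 member probe sets below it passed in limma in any of the 4 comparisons. At an unadjusted p under 0.05 stood 0 of the 4. Over all 31042 probe sets, 1 passed between mutant and wild-type pools and 0 in each comparison with the control. At an unadjusted p under 0.05 stood 1656 of them between mutant and wild-type pools. For both, mutant and wild-type pools against the control there were 1162, 1037 and 1470. So 0 of 4 sets these members apart from no others. For Rxra the limma adjusted p was then 0.944 between mutant and wild-type pools.

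Across the members, 0 of the 7 tested probe sets passed between mutant and wild-type pools in limma, where 3 of 18625 did over all (0.0161%); 3 were higher and 4 lower in mutant pools, with a median log2 difference of −0.02 against 0.01 over all tested probe sets. Groups did not overlap at 0 of the 7, and at 2.95% of all tested. Against the negative control, with both transgenes combined, 0 of 7 passed in limma, as did 0% of all tested probe sets (3.12% at an unadjusted p under 0.05, and 0 of the 7). Mutant pools alone against the control gave 0 of 7 and 0% over all, with 0 of 7 and 2.29% at an unadjusted p under 0.05. Wild-type pools alone gave 0 of 7 and 0%, with 0 of 7 and 4.28%. The median log2 difference of the members was −0.02 for both transgenes, 0.01 for mutant and −0.05 for wild-type pools, and −0.02, −0.01 and −0.02 over all tested probe sets. These comparisons share the control pool. At 0 of the 7 did all 8 transgenic pools lie on the same side of the control, where 19.7% of all tested did. All 4 mutant pools lay on 1 side of it at 0 of the 7, and at 38% of all tested. All 4 wild-type pools did at 3 of the 7, above it for Rxrb and Crabp1 and below it for Crabp2, and at 37.8% of all tested.

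**Figure D3:**
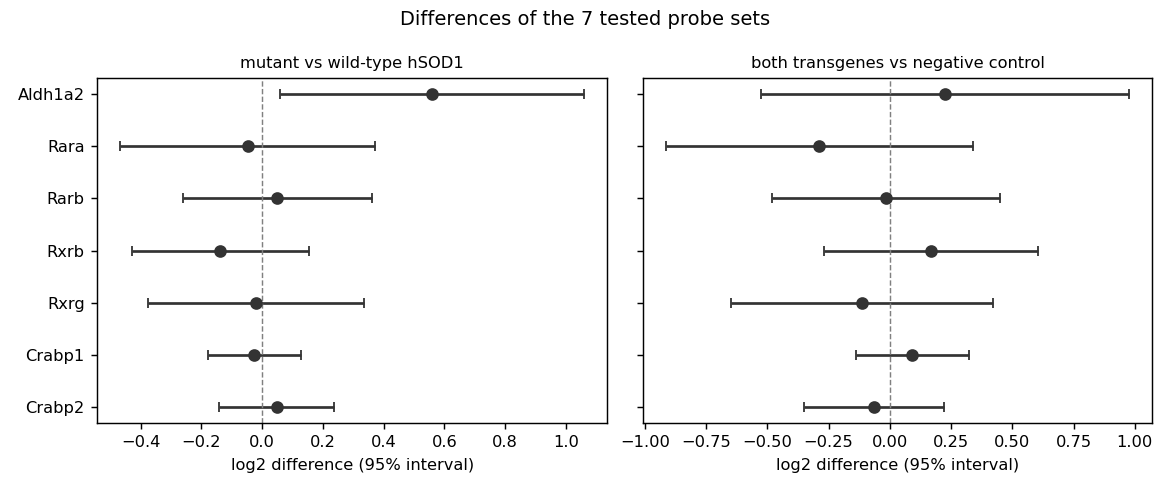
Log2 differences (x axis) with 95% intervals from limma for the 7 tested member probe sets, between mutant and wild-type pools (left) and between both transgenes and the single negative control (right). Aldh1a2 has the largest estimate on the left, 0.56, with an interval from 0.06 to 1.06 before any adjustment; every other interval includes 0.

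Wild-type replicate 2 was the extreme pool for several members. Among the 8 transgenic pools it was the lowest in Aldh1a2 and Rarb and the highest in Rara, Rxrb and Crabp1, while it was at neither end in Rxrg and Crabp2. Without it, or when the actin ratio was a covariate, the differences of Rara and Crabp1 became positive and that of Rarb negative, and that of Rxrb became positive with the covariate. The exact two-sided permutation test of the log2 actin ratio between mutant and wild-type pools gave p = 0.0286, the smallest that 70 arrangements allow. Without wild-type replicate 2 it gave p = 0.0571 by the same exact test, where the smallest that 35 arrangements allow is 0.0286. The other wild-type ratios, 8.19 to 9.20, still lay above every mutant ratio, 6.98 to 7.98. For the log2 GAPDH ratio the same exact test gave p = 0.0571 over all 8 transgenic pools. The part of RNA quality in the members' values was not tested beyond these fits.

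**Figure D4:**
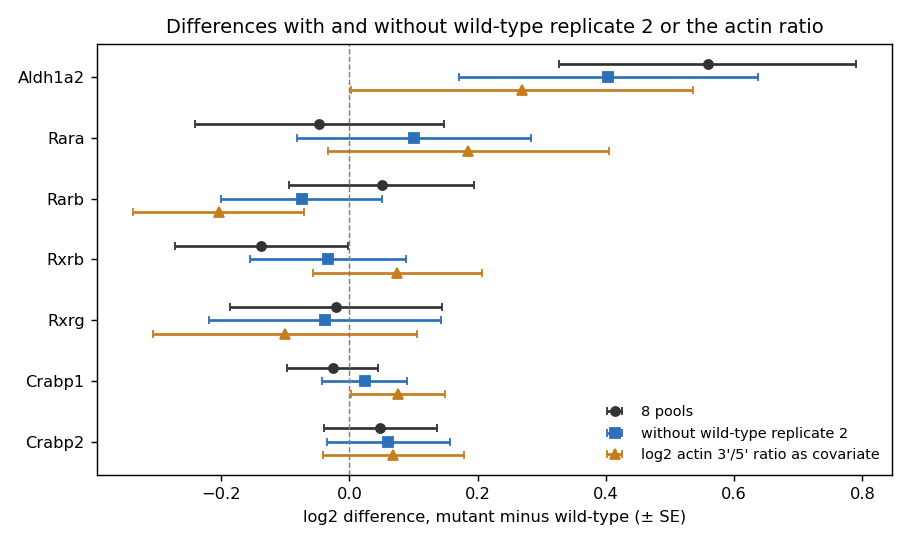
Log2 difference of mutant from wild-type pools (x axis, ± SE from limma) for each tested member with all 8 pools, without wild-type replicate 2, and when the log2 actin ratio was a covariate. Aldh1a2 falls from 0.56 to 0.40 and 0.27, and Rara, Rarb, Rxrb and Crabp1 change sign in at least 1 of the other fits.

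Around these members, 96 other genes of the pathway were listed, of which 78 were on the array and 43 lay above the filter. None passed in limma. Between mutant and wild-type pools it was 0 of 43, with 22 higher, 21 lower and 1 at an unadjusted p under 0.05. Over all tested probe sets 0.0161% passed, 53.7% were higher and 4.93% stood at an unadjusted p under 0.05. For both transgenes against the control it was 0 of 43, with 18 higher, 25 lower and 0 at an unadjusted p under 0.05. There 0% of all tested probe sets passed, 46.5% were higher and 3.12% stood at an unadjusted p under 0.05. Retinol uptake was represented by Stra6, the membrane receptor that takes up retinol, at 543, 372, 395 and 316 in mutant replicates 1 to 4, 465, 703, 643 and 357 in wild-type replicates 1 to 4, and 457 in the control. Wild-type replicates 2 and 3 stood high and the groups overlapped (log2 difference −0.39, 95% interval −0.82 to 0.04, limma adjusted p = 0.929). Without wild-type replicate 2, its highest pool, the difference was −0.25. The other listed genes of this step above the filter were Scarb1, a lipoprotein receptor, at 37.3 ± 6.28, 39.9 ± 5.60 and 56.5 in mutant, wild-type and control pools, and Ttr, the carrier of retinol-binding protein in blood, at 31.3 ± 9.12, 29.3 ± 11.7 and 35.3. All 8 transgenic pools lay below the control for Scarb1, as they did for 10.5% of all tested probe sets. Scarb1 was named for a p among the 2 smallest of its list against the control. The difference did not pass (log2 difference −0.48, limma adjusted p = 1.00).

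Of Aldh1a1, Aldh1a2 and Aldh1a3, only Aldh1a2 lay above the filter. Aldh1a1 ranged from 2.56 to 16.1 and Aldh1a3 from 1.06 to 19.5 over the 9 arrays, both below it. Of the enzymes of the step before, Rdh11, a retinal reductase, was 205 ± 18.1 in the mutant and 178 ± 17.4 in the wild-type pools (log2 difference 0.20, limma adjusted p = 0.929), with 208 in the control. Rdh10, the main retinol dehydrogenase of embryos, was 48.9 ± 6.31, 50.5 ± 6.82 and 49.0. Adh5 was 1198 ± 41.3, 1192 ± 57.0 and 1294, with all 8 transgenic pools below the control. Dhrs4 was 31.2 ± 6.53, 32.4 ± 4.11 and 30.9, and Por, which passes electrons to Cyp26 enzymes, 222.8 ± 24.4, 227 ± 31.9 and 219.

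Breakdown of retinoic acid was represented by Cyp26b1, at 1068, 992, 873 and 928 in mutant replicates 1 to 4, 1601, 737, 1286 and 783 in wild-type replicates 1 to 4, and 1146 in the control. Its wild-type pools split into a high and a low pair around the mutant pools, with an SD of 415 against 83.6 in mutant pools, and the log2 difference was −0.12 (SE 0.198, limma adjusted p = 0.962), or −0.28 without wild-type replicate 2. Cyp26a1, whose repeat is shown above, lay between 2.15 and 14.4 on all 9 arrays, below the filter. Fabp5, which can also carry retinoic acid, was 5028 ± 232 in the mutant and 4924 ± 137 in the wild-type pools, with 5207 in the control.

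Genes known to respond to retinoic acid numbered 11 above the filter, of which 7 had a log2 difference above 0 and 4 below 0 for mutant pools, and 0 passed. Hoxa5, a homeobox gene of the cervical cord, was 2311, 2079, 2423 and 2251 in mutant replicates 1 to 4 and 2029.9, 1850.3, 1782 and 1802 in wild-type replicates 1 to 4, so that the groups did not overlap, and 2299 in the control (log2 difference 0.28, SE 0.0702, limma adjusted p = 0.697). Hoxa5 was named for having the smallest unadjusted p of this list (0.00157 in limma), and the only one under 0.05. Groups did not overlap at 2.95% of all tested probe sets. Meis1, a cofactor of Hox proteins, was 3023 ± 155 and 2816 ± 74.9 (log2 difference 0.10, limma adjusted p = 0.929). Hoxb6 was 436 ± 45.8 in mutant, 393 ± 51.8 in wild-type and 343 in control pools, with all 8 transgenic pools above the control. The median of the 11 differences was 0.06 on the log2 scale, against 0.01 over all tested probe sets.

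Coactivators and corepressors, which RAR and RXR recruit to DNA, gave 7 higher and 6 lower values in mutant pools among 13 tested genes. Tbl1xr1, a corepressor subunit, was 404 ± 16.8 in the mutant and 369 ± 26.8 in the wild-type pools, and the corepressor enzyme gene Hdac3 421 ± 33.6 and 383 ± 42.8 (limma adjusted p = 0.929 for each). Ncor1 was 377 ± 37.9 over the 8 transgenic pools and 438 in the control, which was above all of them. The control was so for 10.5% of all tested probe sets. Nsd1 was 964 ± 88.2 over the transgenic pools and 1036 in the control. Ncor1 and Nsd1 were named for having the 2 smallest p of this list against the control. Of 5 tested partners of RXR 2 were higher and 3 lower, with Ppard at 23.9 ± 4.85 against 29.9 ± 4.70 and Nr4a2, known from dopamine neurons, at 252 ± 40.5 against 283 ± 19.4. Of 5 tested nuclear receptors that bind such repeats without retinoic acid 3 were higher and 2 lower, with Nr2f6 at 167 ± 11.3 against 148 ± 10.6 and Nr2f2 at 1540 ± 123 against 1626 ± 128. For Nr1h2, Nr1i2 and Nr2c1, named for their difference from the control, the 8 transgenic pools had 68.4 ± 12.7, 18.7 ± 4.08 and 107 ± 11.8, and the control 86.7, 24.4 and 132. None of these passed in limma. Without wild-type replicate 2, the differences of mutant from wild-type pools of the 22 pathway genes named here by rule gave 0 that passed (lowest limma adjusted p = 0.999), 11 moved by over 1.5 times, and that of Nr1i2 turned its sign; that of Hoxa5 stayed at 0.28.

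The genes whose levels over the 9 arrays were most like those of Aldh1a2 were sought among 9867 other genes with a symbol, by Pearson's r of log2 values, as a description of these arrays that share their pools and scaling. They were Rbbp7, a histone-binding protein of chromatin complexes (r = 0.946), Tmem69 (r = 0.935), Stx12, a syntaxin of endosomes (r = 0.928), Akap12, a scaffold protein (r = 0.924), and Nprl2 (r = 0.922). Rbbp7 ran from 1473 in wild-type replicate 2 to 1731 in mutant replicate 1, a far narrower range than that of Aldh1a2. For Crabp2 they were Atp6v1d, the netrin receptor gene Unc5c and Arpc5 (r = 0.947, 0.942 and 0.925), for Crabp1 Gar1, Eif4g1 and Zmat2 (r = 0.955, 0.938 and 0.935), and for Rarb Tbc1d19, the potassium channel gene Kcnd3 and Wdr70 (r = 0.929, 0.927 and 0.916). Each r is among the highest of 9867 values over 9 arrays, and was picked for being so.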

How the data were processed

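Per the labels, each of 9 arrays carried total RNA of 1 pool. Values are the intensities the authors deposited, linear, with 1 for each probe set on each array; the sources used here do not name the software. In every array the mean after trimming 2% at each end was 150.05, so the authors' intensities were used without further scaling. The members and gene lists were chosen with earlier results of these data known. Of 31042 probe sets without Affymetrix controls, 20826 had 1 gene symbol, 436 several and 9780 none. Intensities were taken to log2 after adding 8.25 (their 25th percentile), probe sets at or under the 40th percentile of the mean were left out, and 18625 were tested with limma 3.58.1 in R 4.3.3 (lmFit, eBayes with trend, Benjamini-Hochberg over all tested, threshold 0.05). Mutant and wild-type pools were compared on 8 arrays, and the control in a fit of 9, where it is assumed to vary like the transgenic pools. The number of arrays limits the precision. The fit was tested on simulated data. All member probe sets are named; of each pathway list, the 2 genes with the smallest p per comparison are named, and others as background. Alternatives were quantile and median scaling, other pseudocounts and filters, eBayes settings, 1 probe set per gene, the le2 tag or the actin ratio as covariate, arrays with the tag alone, a replicate block, all 9 arrays, and leaving out each transgenic array.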

Additional observations from a re-analysis of the deposited data

Results flagged for a closer look

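In groups of 4 pools, 26 sets of values (11 member probe sets and 2 RNA quality ratios in each transgenic group) were checked for a value far from the others, of which chance marks about 1 in 20. The beta-actin 3′/5′ ratio of wild-type replicate 2, 19.2, was the only one marked: its gap to the nearest pool was 0.908 of the range of the group. No member value was marked in this way.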

How the results depend on the processing

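Under none of the alternatives did a tested member pass the threshold in limma in any comparison; between mutant and wild-type pools the lowest adjusted p of Aldh1a2 was 0.563, and its difference stayed positive in all 22, from 0.27 to 0.79. Over all probe sets, 5 passed between mutant and wild-type pools with median centring, 1 with no filter, with a filter at the 60th percentile or with the tag as covariate, and 0 with eBayes without trend, with tagged arrays alone or with the actin covariate (993, 670 and 680 at an unadjusted p under 0.05); leaving out an array gave 1 to 3. Both transgenes against the control gave 1 with median centring, the smaller pseudocount of 2.06 or 1 probe set per gene, and 0 to 1 with an array left out; wild-type pools gave 1 under the same 3 settings and 0 to 1 with an array left out; mutant pools gave 1 with the smaller pseudocount. Signs of small differences turned. With the actin covariate the log2 difference of mutant from wild-type pools was 0.19 for Rara, −0.20 for Rarb, 0.075 for Rxrb and 0.076 for Crabp1; both transgenes against the control gave 0.17 for Rarb; wild-type pools gave 0.31 for Aldh1a2, 0.27 for Rarb, −0.027 for Rxrb and −0.024 for Crabp1. With the tag as covariate, Crabp2 was 0.064, 0.088 and 0.040 for both, mutant and wild-type pools against the control, Rarb −0.071 and Rxrb −0.015 for mutant, and Aldh1a2 0.32 for wild-type pools. On tagged arrays alone Crabp2 was −0.023 between mutant and wild-type pools; Rarb was −0.0013 with quantile normalization (mutant against control) and 0.013 with median centring (both against control). The cause was not tested. Leaving out an array gave, between mutant and wild-type pools, −0.21 to 0.10 for Rara, −0.075 to 0.15 for Rarb, −0.12 to 0.13 for Rxrg, −0.070 to 0.024 for Crabp1 and −0.030 to 0.13 for Crabp2; for both against the control −0.068 to 0.045 for Rarb; for mutant pools −0.061 to 0.093 for Rarb and −0.12 to 0.039 for Crabp2; for wild-type pools −0.15 to 0.10 for Aldh1a2 and −0.15 to 0.083 for Rarb. The log2 actin ratio differed by −0.65 to −0.24 and the GAPDH ratio by −0.21 to −0.058. Replicate numbers are given no shared source in the labels, and same-numbered departures from the group means correlated by 0.124, 0.0868, −0.0744 and 0.201 across probe sets; with a replicate block 3 probe sets passed, as without it, and Aldh1a2 had 0.56 (SE 0.147, limma adjusted p = 0.563). Replicates 1 and 4 matched their own number best, 2 and 3 did not. Comparisons with the control were not fitted with a block or on tagged arrays alone, since the control carries neither.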
